A study of Mus musculus with 12 samples.

Results

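The unfolded protein response and the integrated stress response were followed through 36 mouse genes in islets of the pancreas, small endocrine organs in which beta cells make insulin. The genes were taken by symbol, through the Ensembl identifiers of the count files, and all 36 were found among 54532 genes listed, of which 29339 had at least 1 count. They comprised 15 chaperones and foldases of the endoplasmic reticulum (ER), 8 genes of ER-associated degradation, 5 stress sensors and their partners, and 8 genes of the branch that runs through the transcription factor ATF4. All 36 passed the filter on low counts, and the lowest count of any member in any library was 50.

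Proteins bound for secretion fold in the ER, where chaperones hold them and disulfide isomerases join their cysteines. When unfolded proteins accumulate, the membrane sensors IRE1, PERK and ATF6 respond: IRE1 splices the Xbp1 mRNA, ATF6 is cut to release a transcription factor, and PERK phosphorylates eIF2alpha, which slows translation while ATF4 is made. XBP1 and ATF6 raise chaperones and degradation factors, and ATF4 raises genes of amino acid supply and, under lasting stress, of cell death. Beta cells depend on this system because proinsulin is folded in large amounts. Gene counts do not show Xbp1 splicing, ATF6 cleavage or phosphorylation.

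RNA sequencing of islets from male C57BL/6 mice gave 12 libraries in 4 groups of 3: beta cell selective Sirt3 knockout mice on a high fat diet (HFD KO), wild type mice on that diet (HFD WT), the same knockout on a standard diet (STD KO) and wild type mice on the standard diet (STD WT). Sirt3 encodes a mitochondrial deacetylase. The high fat diet took 60% of its calories from fat and was given for 36 weeks, and the standard diet held 6.2% fat. HFD WT mice had eaten standard food for 4 weeks before, and the HFD KO mice numbered 1, 2 and 3 for 6, 5 and 6 weeks, so that genotype and this earlier period cannot be told apart within the high fat groups. An age of 40 weeks was recorded for every sample, although the diet periods recorded for the HFD KO mice add up to more, so that an age difference between the high fat groups cannot be told apart from genotype. The labels do not give the promoter that drove the deletion, and they do not state that each library is 1 animal. The p-values therefore cover the spread between libraries, which may be technical in part.

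Libraries held 16037709 to 20864920 counts, and the 36 genes took 0.993% to 1.62% of them. Values per library are given as CPM, counts scaled to library sizes that were corrected by the TMM method. Beta cell markers were present in all libraries, with Ins2 the highest of them at 115570 to 284390 CPM and Ins1 at 57077 to 131690 CPM. Sirt3 stood at 7.85, 11.5 and 6.21 CPM in HFD KO, 11.4, 9.30 and 11.8 CPM in HFD WT, 6.59, 5.97 and 5.86 CPM in STD KO and 9.04, 11.3 and 11.5 CPM in STD WT. The library labelled HFD KO 2 thus lay inside the wild type range. Neither genotype difference in Sirt3 within a diet passed edgeR's quasi-likelihood test (log2 fold change -0.35, adjusted p = 0.363 on the high fat diet, and -0.79, adjusted p = 0.156 on the standard diet). Averaged over both diets the difference was -0.57 (SE 0.16, adjusted p = 0.0503 by the same test). Tph1, singled out after its values were seen, stood at 382 to 1149 CPM in the KO libraries and at 0.697 to 1.33 CPM in 5 WT libraries, but at 43.5 CPM in the library labelled STD WT 3. Without these 2 libraries the Sirt3 values were -0.59 (adjusted p = 0.165) and -0.70 (adjusted p = 0.211). The value averaged over both diets was then -0.64 (SE 0.14, adjusted p = 0.0298 by edgeR's quasi-likelihood test). Counts of calls, and directions that rest on these 2 libraries, are also given without them.

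The branches are known for different promoter elements, and the sequences of these genes are therefore shown first. XBP1 and ATF6 act through the ER stress response element (ERSE: CCAAT, 9 bases of any kind, CCACG) and ERSE-II (ATTGG, 1 base of any kind, CCACG), and ATF4 with C/EBP partners through a composite element (CARE, TGATGNAA). Each was searched on both strands in RefSeq windows of GRCm38.p6, from 250 bases before to 50 bases after a gene's start. RefSeq windows matched 31 of the 36 genes, with 32 windows because Derl2 has 2. The genes Manf, Hyou1, Derl1, Atf6 and Ppp1r15b had none. ERSE was in 9 of the 32 windows (28.1%), against 39 of all 32851 windows (0.119%). It was in 7 of 13 windows of chaperones, 2 of 8 of degradation genes, 0 of 4 of sensors and 0 of 7 of the ATF4 branch. Neither ERSE nor CARE was in every window of a branch, and CARE was in 3 of 7 windows of the ATF4 branch and in 0 of 13 of chaperones. The matched elements of all branches are shown because ERSE was in chaperone windows and in none of the ATF4 branch. Each element reads 5′ to 3′ along the strand of the match, with the fixed letters of the motif in capitals.
Hspa5 ERSE, chr2:34772025-34772043, plus strand, 65 bases before the start: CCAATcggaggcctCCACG
Derl3 ERSE, chr10:75893242-75893260, minus strand, 156 bases before the start: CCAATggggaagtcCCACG
Hsp90b1 ERSE, chr10:86705638-86705656, minus strand, 212 bases before the start: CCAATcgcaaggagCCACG
Hsp90b1 ERSE, chr10:86705533-86705551, plus strand, 107 bases before the start: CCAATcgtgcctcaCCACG
Calr ERSE, chr8:84847075-84847093, plus strand, 162 bases before the start: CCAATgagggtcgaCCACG
Canx ERSE, chr11:50325800-50325818, minus strand, 145 bases before the start: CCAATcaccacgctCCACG
Pdia6 ERSE, chr12:17266491-17266509, plus strand, 98 bases before the start: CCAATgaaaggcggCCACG
Dnajc3 ERSE, chr14:118937827-118937845, plus strand, 105 bases before the start: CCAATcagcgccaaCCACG
Creld2 ERSE, chr15:88819520-88819538, minus strand, 126 bases before the start: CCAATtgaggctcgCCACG
Syvn1 ERSE, chr19:6046532-6046550, plus strand, 44 bases before the start: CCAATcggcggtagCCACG
Herpud1 ERSE-II, chr8:94386377-94386387, plus strand, 52 bases before the start: ATTGGgCCACG
Dnajb11 ERSE-II, chr16:22857852-22857862, plus strand, 7 bases after the start: ATTGGcCCACG
Chac1 CARE, chr2:119351049-119351056, minus strand, 193 bases before the start: TGATGcAA
Herpud1 CARE, chr8:94386317-94386324, minus strand, 112 bases before the start: TGATGcAA
Asns CARE, chr6:7693225-7693232, minus strand, 23 bases before the start: TGATGaAA
Trib3 CARE, chr2:152344039-152344046, plus strand, 14 bases after the start: TGATGtAA

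ERSE-II was in 2 of the 32 windows (6.25%), against 12 of all windows (0.037%). CARE was in 4 of 32 (12.5%), 3 of them in the ATF4 branch, against 1304 of all windows (3.97%). The closing letters CCACG, which are part of both ERSE and ERSE-II, were in 25 of 32 windows (78.1%) and in 10765 of all windows (32.8%). An unfolded protein response element searched as TGACGTGG was in 0 of the 32 and in 222 of all windows (0.676%). Herpud1, whose protein helps to assemble the degradation complex, was the 1 gene with matches to both kinds of element. A match describes letters in a window, and no binding was measured.

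The 250 bases before the start are printed for Derl3, the gene with the largest fold change of the 36, and for Chac1, a gene with a CARE whose wild type libraries spanned 16.2 to 72.0 CPM. Each reads 5′ to 3′ on the strand of its gene, which is the plus strand for both, with the matched element in capitals.
Derl3, chr10:75893148-75893397: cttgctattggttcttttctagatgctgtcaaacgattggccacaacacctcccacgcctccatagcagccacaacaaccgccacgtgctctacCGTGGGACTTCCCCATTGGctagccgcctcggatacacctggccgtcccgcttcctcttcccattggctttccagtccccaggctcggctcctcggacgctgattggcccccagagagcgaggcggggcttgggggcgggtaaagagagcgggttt
Chac1, chr2:119350992-119351241: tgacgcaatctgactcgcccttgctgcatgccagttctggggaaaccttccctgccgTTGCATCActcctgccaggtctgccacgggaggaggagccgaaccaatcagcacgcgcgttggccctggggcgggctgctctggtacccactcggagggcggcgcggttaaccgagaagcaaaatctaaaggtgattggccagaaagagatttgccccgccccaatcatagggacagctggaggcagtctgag

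**Figure D1:**
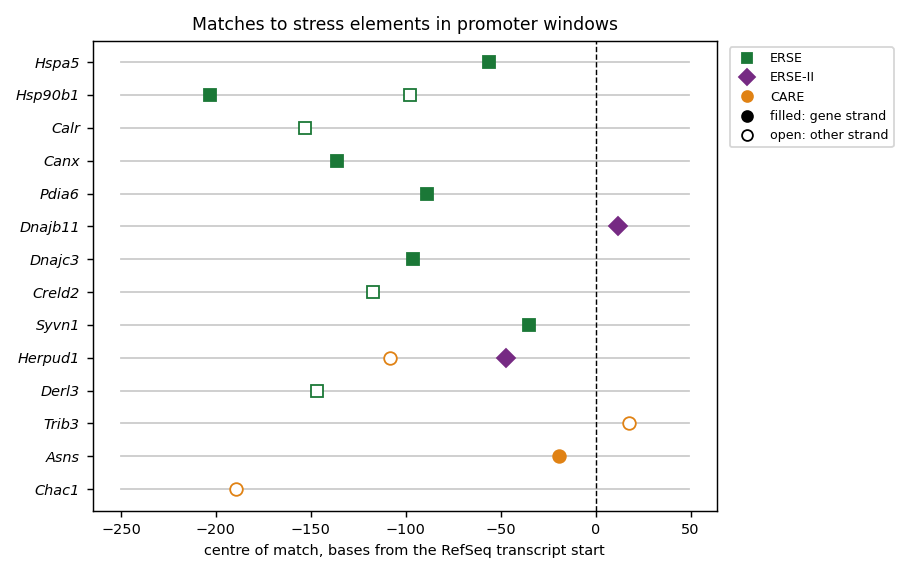
Positions of the matched elements relative to the RefSeq start, in bases, 1 row for each gene with a match; marker shapes and colours stand for ERSE, ERSE-II and CARE. The ERSE matches lie 44 to 212 bases before the start, whereas the ERSE-II of Dnajb11 and the CARE of Trib3 lie 7 and 14 bases after it.

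Levels can be compared between genes on the scale of the deposited FPKM, which divides by gene length. Hspa5, the chaperone BiP that also holds the sensors inactive, was the most abundant member with a mean of 1214 FPKM over the 12 libraries. The disulfide isomerase Pdia3 followed at 1079 FPKM, the calcium-binding lectin chaperone Calr at 949 FPKM, P4hb, another disulfide isomerase, at 911 FPKM and Pdia6 at 692 FPKM. Hspa5 and Pdia3 overlapped across libraries in each of the 4 groups, and in HFD KO, for example, Hspa5 had 1766, 1312 and 1662 FPKM and Pdia3 had 1360.4, 1069 and 1215 FPKM. In the other branches the highest members were Herpud1 at 214 FPKM among degradation genes, Xbp1 at 268 FPKM among sensors and Atf4 itself at 215 FPKM. The pro-apoptotic pseudokinase Trib3, the phosphatase subunit Ppp1r15b and the stress-induced sestrin Sesn2 were lowest, at 12.1, 12.2 and 16.5 FPKM.

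The first comparison asks how the knockout islets differed from wild type islets after the high fat diet. Of the 36 genes, 6 rose in HFD KO and 0 fell (edgeR's quasi-likelihood test, Benjamini-Hochberg adjusted over 16076 genes, threshold 0.05). Over all genes tested 7.4% passed, 3.9% higher and 3.5% lower. An unadjusted p under 0.05 was reached by 16 of the 36 and by 24.3% of all genes. The genes that rose were the degradation factors Derl3, Edem1 and Edem2 and the ER proteins Dnajb11, P4hb and Sdf2l1. Fold changes were positive for 32 of the 36 members, with a median log2 fold change of 0.41, against -0.00 over all genes. Libraries of HFD KO lay wholly above those of HFD WT for 16 of the 36 and wholly below for 0, while 11.2% of all genes were wholly above and 13.3% wholly below. In whole islets, fewer cells of a type and less RNA per cell cannot be told apart.

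**Figure D2:**
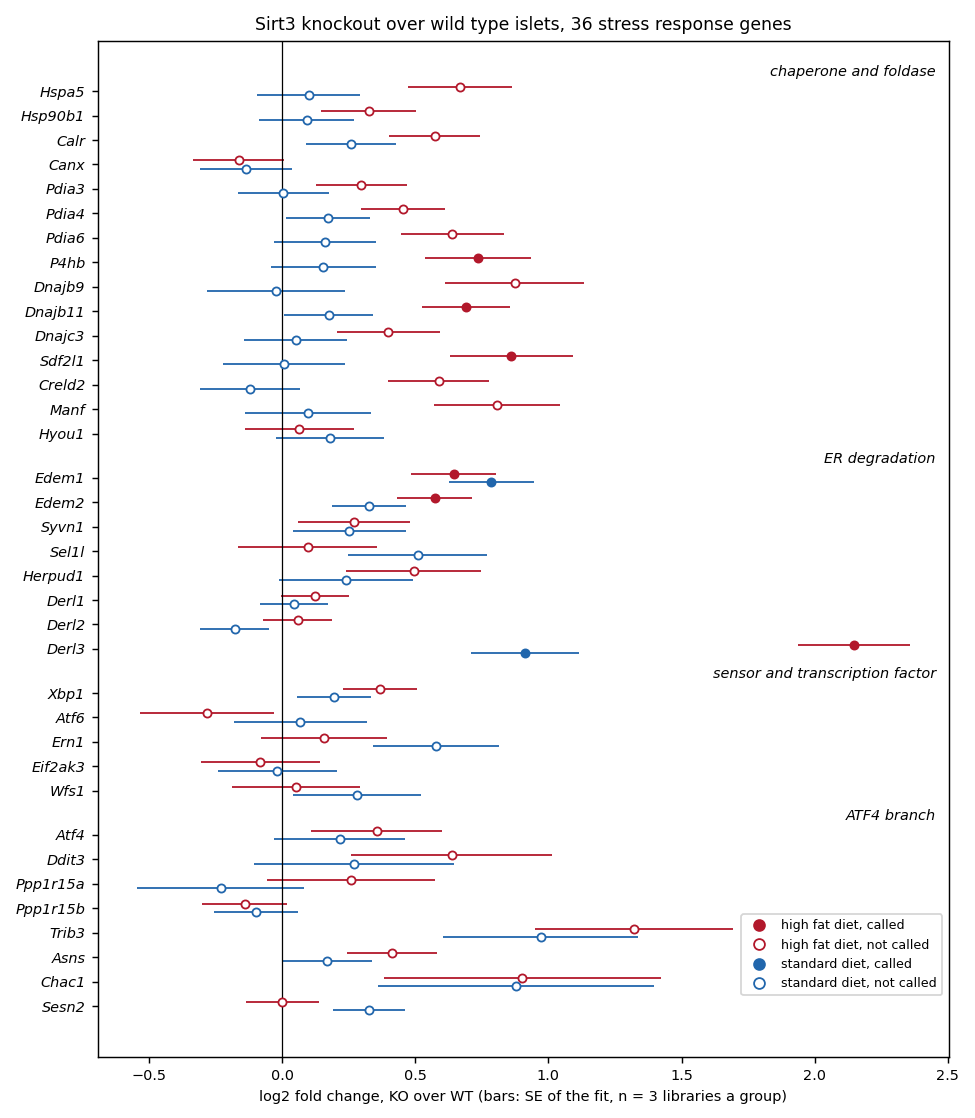
Fitted log2 fold change of KO over WT for each of the 36 genes (x axis), under the high fat diet (red, upper point) and the standard diet (blue, lower point); bars are the SE of the fit from 3 libraries a group, and filled points passed an adjusted p of 0.05. Derl3 stands farthest to the right at 2.15 under the high fat diet, and 14 of 15 chaperones are positive there.

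Derl3, a derlin that helps to pass misfolded proteins out of the ER, had the largest fold change of the 36 (ENSMUSG00000009092, mm10 chr10:75893413-75895941, plus strand). It had 99.7, 63.2 and 77.7 CPM in HFD KO and 19.5, 17.8 and 16.9 CPM in HFD WT. On the standard diet it had 40.3, 55.0 and 44.4 CPM in STD KO and 20.5, 31.4 and 22.4 CPM in STD WT. All 6 KO libraries lay above all 6 WT libraries. In HFD KO it was 4.43-fold higher than in HFD WT (2.15 ± 0.21 on the log2 scale, estimate and SE; edgeR's quasi-likelihood test, adjusted p = 0.000159). The call was kept in 21 of 21 alternative fits, with log2 fold changes of 1.80 to 2.33. Without the libraries labelled STD WT 3 and HFD KO 2 it was 2.33 (SE 0.21, adjusted p = 0.000225). Its paralogs Derl1 and Derl2, which act in the same exit step, were at 0.12 and 0.06 on the log2 scale, with adjusted p-values of 0.595 and 0.827.

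The mannosidase-like proteins EDEM1 and EDEM2 mark slowly folding glycoproteins for degradation. Edem1 (chr6:108828641-108859356, plus strand) had 157, 129.96 and 189 CPM in HFD KO, 95.0, 100.4 and 109 CPM in HFD WT, 155, 143 and 183 CPM in STD KO and 95.7, 102 and 81.2 CPM in STD WT. As with Derl3, each KO library exceeded each WT library. Its log2 fold change in HFD KO was 0.64 (edgeR's quasi-likelihood test, SE 0.16, adjusted p = 0.0321). The call was lost in 4 of 12 fits that left out 1 library, with an adjusted p as high as 0.102 when HFD WT 1 was omitted. Edem2 (chr2:155701677-155729475, minus strand) had 195, 153 and 209 CPM in HFD KO, 130.3, 120.1 and 124 CPM in HFD WT, 125, 162 and 139 CPM in STD KO and 110.3, 118 and 112 CPM in STD WT. The KO and WT libraries did not overlap within either diet. Its log2 fold change in HFD KO was 0.57 (SE 0.14, adjusted p = 0.0307), lost in 5 of 12 such fits and under offsets corrected for gene length (0.47, adjusted p = 0.0857).

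The rest of the degradation machinery did not pass. Herpud1, the most abundant of these genes, had 288, 248 and 302 CPM in HFD KO, 269.6, 145 and 180.0 CPM in HFD WT, 225, 261 and 293 CPM in STD KO and 182, 178 and 299.9 CPM in STD WT. The groups overlapped in both diets, through HFD WT 1 and STD WT 3. The log2 fold change of Herpud1 was 0.49 in HFD KO (adjusted p = 0.256) and 0.24 in STD KO (adjusted p = 0.999), and without the libraries labelled STD WT 3 and HFD KO 2 it was 0.61 and 0.56 (adjusted p = 0.19 and 0.54). The ubiquitin ligase Syvn1 and its partner Sel1l, the core of the degradation complex, were at 0.27 and 0.10 on the log2 scale in HFD KO, with adjusted p-values of 0.469 and 0.863. Exons of Syvn1 overlap Mrpl49 on the other strand and those of Derl2 overlap Mis12, so their reads are uncertain where the strand setting of the counting is not given.

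Chaperones and foldases lay higher in HFD KO as a group, with 14 of 15 fold changes positive and a median log2 fold change of 0.59. For 10 of 15 the HFD KO libraries lay wholly above those of HFD WT, against 11.2% of all genes. Only 3 of the 15 passed the test, all higher, where 3.9% of all genes were called higher. Dnajb11 encodes an HSP40 partner of BiP (chr16:22857845-22879634, plus strand). It had 156, 113 and 144 CPM in HFD KO, 102, 78.0 and 76.8 CPM in HFD WT, 90.4, 127 and 109 CPM in STD KO and 99.2, 96.8 and 92.9 CPM in STD WT. The high fat groups did not overlap and the standard diet groups did. Its log2 fold change was 0.69 (edgeR's quasi-likelihood test, SE 0.17, adjusted p = 0.0292). That call was lost in 3 of 12 fits that omitted 1 library, at most to 0.141 when HFD WT 3 was the one omitted.

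Sdf2l1, a component of the BiP complex, and P4hb, the classical protein disulfide isomerase, rose with it. Sdf2l1 (chr16:17130138-17132383, minus strand) had 310.4, 285 and 212 CPM in HFD KO, 188, 135 and 121 CPM in HFD WT, 141, 206 and 148 CPM in STD KO and 177, 187 and 127 CPM in STD WT. P4hb (chr11:120560298-120573253, minus strand) had 2139.5, 1701 and 1355 CPM in HFD KO, 1217, 919 and 983 CPM in HFD WT, 1045, 1335 and 1068 CPM in STD KO and 1029, 1062 and 1008 CPM in STD WT. For both genes the high fat groups were apart, with HFD KO 1 and HFD WT 1 the highest of their groups. The log2 fold change of Sdf2l1 was 0.86 (SE 0.23, adjusted p = 0.0454) and that of P4hb 0.74 (SE 0.20, adjusted p = 0.0465) in edgeR's quasi-likelihood test. Leaving out 1 library ended the call of Sdf2l1 in 8 of 12 fits (up to 0.198 without HFD WT 3) and that of P4hb in 10 of 12 (up to 0.195 without HFD KO 1).

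Of the 2 chaperones with the highest FPKM, neither passed. Hspa5 had 2729, 2061 and 2200.4 CPM in HFD KO, 1721, 1331 and 1348 CPM in HFD WT, 1344, 1942 and 1559.9 CPM in STD KO and 1482, 1447 and 1591 CPM in STD WT. Its libraries were apart on the high fat diet only, with 0.67 on the log2 scale (edgeR's quasi-likelihood test, SE 0.19, adjusted p = 0.0604). Pdia3 had 1715, 1370.3 and 1312 CPM in HFD KO, 1380.2, 1087 and 1114 CPM in HFD WT, 1094, 1328 and 1117 CPM in STD KO and 1113, 1225 and 1189 CPM in STD WT. Here the groups overlapped, and the log2 fold change in HFD KO was 0.30 (adjusted p = 0.315). The calreticulin gene Calr, the neurotrophic ER protein gene Manf, the BiP co-chaperone gene Dnajb9 and Pdia6 were at 0.57, 0.81, 0.87 and 0.64 on the log2 scale, with adjusted p-values from 0.062 to 0.0672. Exons of Manf overlap those of Rbm15b and Dcaf1, so part of its reads is uncertain. Calnexin, the membrane-bound partner of calreticulin encoded by Canx, was the exception in sign at -0.16 (adjusted p = 0.607), and the large HSP70-like chaperone gene Hyou1 was at 0.06 (adjusted p = 0.885).

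Libraries of 1 group differed from each other in their chaperones. Of the 15, those above their mean over the 12 libraries numbered 15, 11 and 15 in HFD KO 1, 2 and 3, and 14, 0 and 2 in HFD WT 1, 2 and 3. The main test does not pair libraries by number. With the replicate number as a block, 13 of the 36 members rose in HFD KO and 0 fell, while 1969 of all 16076 genes passed. The 13 comprised the 6 above and Calr (adjusted p = 0.0172), Creld2 (0.0241), Dnajb9 (0.0256), Hspa5 (0.021), Manf (0.0295), Pdia6 (0.0171) and Trib3 (0.0326). The Wald test of DESeq2, without the block, called 15, all higher, and 2033 of all 15961 genes, 1054 of them higher. In the main test, the count fell to 1 without HFD KO 1, HFD WT 2 or HFD WT 3, and Derl3 was the gene that stayed. It was 10 without HFD KO 3, where the calls over all genes numbered 2917, against 1189 with that library included. Without the libraries labelled STD WT 3 and HFD KO 2 it was 4: Derl3, Edem1, Edem2 and Dnajb11. Calls over all genes ranged from 527 to 2917 over the 12 fits that left out 1 library. Whether the counts of members only followed the calls over all genes was not tested.

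**Figure D3:**
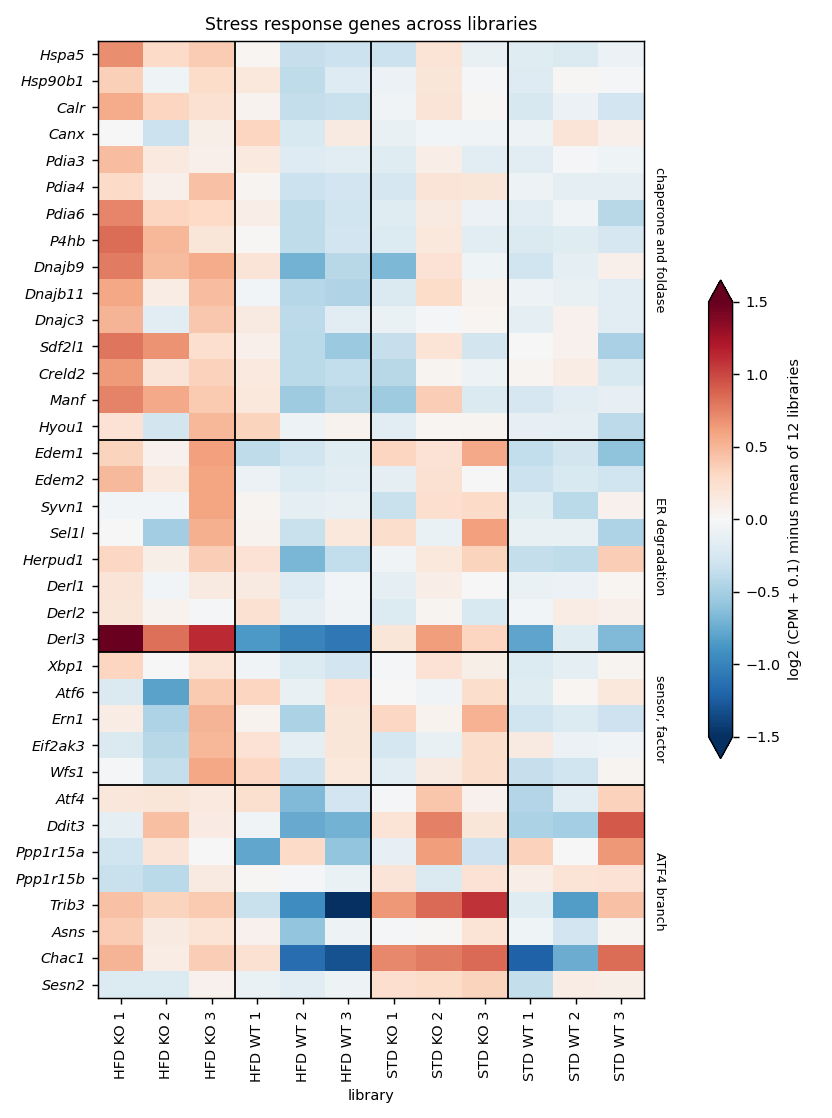
Level of each gene (rows, grouped by branch) in each of the 12 libraries (columns) as log2 of CPM plus 0.1 minus the gene's mean over the 12 libraries; red is higher and blue lower, with colours ending at 1.5. Chaperones are red across HFD KO 1 and pale to blue across HFD WT 2 and HFD WT 3, with HFD WT 1 in between. Of the 8 ATF4 branch genes, 5, 7 and 7 lie above their mean in STD KO 1, 2 and 3, and 8 in STD WT 3.

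Among the sensors and their partners 0 of 5 passed under the high fat diet, where 7.4% of all genes did. Their fold changes were positive for 3 of 5, with a median log2 fold change of 0.05. These signs rested on single libraries. Without the libraries labelled STD WT 3 and HFD KO 2, 5 of 5 were positive, with a median of 0.28. Without HFD KO 3, 1 of 5 was positive, with a median of -0.24. Xbp1, the substrate of IRE1 and the source of the spliced factor, had 426, 342 and 393 CPM in HFD KO, 327, 294 and 279 CPM in HFD WT, 334, 396 and 362 CPM in STD KO and 294, 310.4 and 350.4 CPM in STD WT. It was the 1 member of the branch whose high fat groups did not overlap (edgeR's quasi-likelihood test, 0.37 on the log2 scale with SE 0.14, adjusted p = 0.131). Ern1, which encodes IRE1, had 191, 128 and 251 CPM in HFD KO, 184, 128 and 201 CPM in HFD WT, 218, 184 and 253 CPM in STD KO and 144, 153 and 143 CPM in STD WT. Its groups overlapped on the high fat diet and were apart on the standard diet, with 0.58 on the log2 scale (SE 0.24, adjusted p = 0.472). Atf6, the PERK gene Eif2ak3 and Wfs1, an ER membrane protein that restrains ATF6, were at -0.28, -0.08 and 0.05 on the log2 scale in HFD KO, with adjusted p-values of 0.531, 0.865 and 0.926.

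In the ATF4 branch 7 of 8 fold changes were positive in HFD KO, with a median log2 fold change of 0.38. Here 0 of 8 passed, against 7.4% of all genes. Atf4 had 347, 352 and 343 CPM in HFD KO, 364, 195 and 254 CPM in HFD WT, 304, 414 and 323 CPM in STD KO and 228, 275 and 394 CPM in STD WT. Groups overlapped in both diets, with HFD WT 1 above all HFD KO libraries and STD WT 3 above 2 of the 3 STD KO libraries. The log2 fold change of Atf4 was 0.36 in HFD KO (adjusted p = 0.407) and 0.22 in STD KO (adjusted p = 0.999), and without STD WT 3 and HFD KO 2 it was 0.39 and 0.49 (adjusted p = 0.451 and 0.68). Asns, the asparagine synthetase gene and a direct target of ATF4, had 137, 116 and 122 CPM in HFD KO, 111, 70.1 and 101 CPM in HFD WT, 104, 107 and 122 CPM in STD KO and 102, 86.4 and 109 CPM in STD WT. The high fat groups were apart, and the log2 fold change of 0.41 (SE 0.17) had an adjusted p of 0.158 in edgeR's quasi-likelihood test.

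Trib3, a target of ATF4 and CHOP, had 14.8, 13.8 and 14.3 CPM in HFD KO, 8.63, 5.66 and 2.86 CPM in HFD WT, 17.2, 19.7 and 23.2 CPM in STD KO and 9.63, 6.08 and 14.9 CPM in STD WT. The groups did not overlap within either diet. Its log2 fold change was 1.32 under the high fat diet (SE 0.37, adjusted p = 0.0559) and 0.97 under the standard diet (SE 0.37, adjusted p = 0.388 by edgeR's quasi-likelihood test). Chac1, a glutathione-degrading enzyme and another ATF4 target, was singled out after its values were seen. It had 57.5, 43.4 and 52.0 CPM in HFD KO, 47.4, 18.2 and 16.2 CPM in HFD WT, 66.3, 69.3 and 72.6 CPM in STD KO and 17.2, 24.0 and 72.0 CPM in STD WT. The STD WT 3 value lay within the knockout range, and all 8 genes of the branch were above their 12-library mean in that library. The log2 fold change of Chac1 on the standard diet was 0.88 (SE 0.52, adjusted p = 0.816) and, without the libraries labelled STD WT 3 and HFD KO 2, 1.78 (SE 0.43, adjusted p = 0.135).

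**Figure D4:**
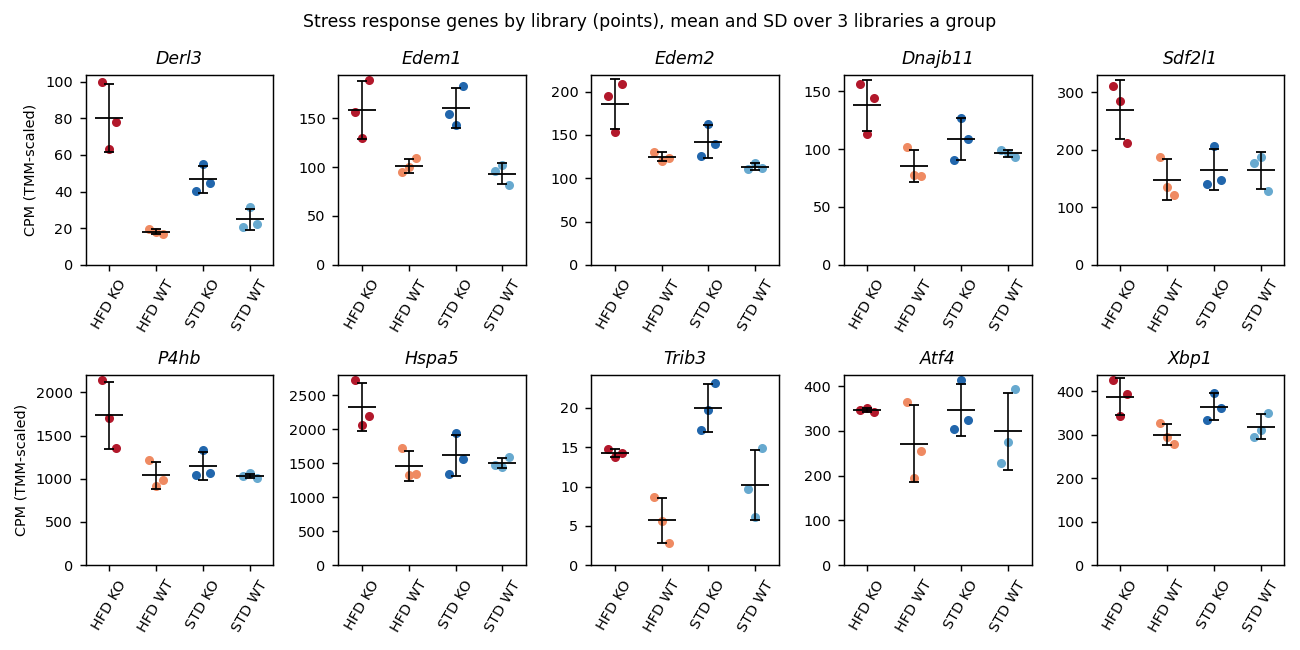
CPM in each library (points) of selected members by group, HFD KO, HFD WT, STD KO and STD WT from left to right, each panel with its own axis from 0. Derl3 stands at 63.2 to 99.7 CPM in HFD KO and at 16.9 to 19.5 CPM in HFD WT.

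Ddit3, which encodes the death-linked factor CHOP, had a log2 fold change of 0.64 in HFD KO (adjusted p = 0.332) and 0.27 in STD KO (adjusted p = 0.999). Its exons overlap those of Mars on the other strand, which held 12493 counts against 3620 for Ddit3, so its level is uncertain. The phosphatase subunit Ppp1r15a, the feedback arm that restores translation, had 0.26 in HFD KO (adjusted p = 0.665), and its constitutive relative Ppp1r15b had -0.14 (adjusted p = 0.635). Sesn2 had 0.00 in HFD KO (adjusted p = 0.999).

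On the standard diet the comparison of knockout with wild type islets gave 2 calls among the 36, Edem1 and Derl3, both higher, and 0 lower. Over all genes tested 1.71% passed, 1.34% higher and 0.367% lower, and an unadjusted p under 0.05 was reached by 6 members and by 8.66% of all genes. The log2 fold change was 0.79 for Edem1 (SE 0.16, adjusted p = 0.0297) and 0.91 for Derl3 (SE 0.20, adjusted p = 0.0497, both by edgeR's quasi-likelihood test). STD KO libraries were wholly above STD WT libraries for 8 of the 36 genes and wholly below for 0, against 7.52% and 7.32% of all genes. Fold changes were positive for 29 of 36, with a median of 0.17 against -0.02 over all genes. Chaperones stayed close to 0, with a median log2 fold change of 0.10 and 0 calls, and Hspa5 was at 0.10 (SE 0.19, adjusted p = 0.999). The other branches had medians of 0.29 for degradation genes, 0.19 for sensors and 0.24 for the ATF4 branch, the last of which was 0.46 without STD WT 3 and HFD KO 2.

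Both standard diet calls were fragile. Omitting 1 library ended the call of Derl3 in 9 of 12 fits and that of Edem1 in 6 of 12. Their adjusted p-values were highest, at 0.186 and 0.132, when STD WT 3 was omitted. Without the libraries labelled STD WT 3 and HFD KO 2, 0 members passed, with log2 fold changes of 0.88 for Derl3 (adjusted p = 0.115) and 0.73 for Edem1 (adjusted p = 0.0579).

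Averaged over both diets, 5 members were higher in knockout islets and 0 lower: Derl3 (log2 fold change 1.53, SE 0.15, adjusted p = 6.27e-05), Edem1 (0.72, SE 0.11, adjusted p = 0.00201), Edem2 (0.45, SE 0.10, adjusted p = 0.016), Trib3 (1.15, SE 0.26, adjusted p = 0.0201) and Dnajb11 (0.43, SE 0.12, adjusted p = 0.046), by edgeR's quasi-likelihood test. Of all genes 7.77% passed, 4.17% higher and 3.6% lower, and an unadjusted p under 0.05 was reached by 17 members and by 21.3% of all genes. The calls of Derl3 and Edem1 were kept in 20 of 20 alternative fits, that of Edem2 in 19, that of Trib3 in 18 and that of Dnajb11 in 9. The 6 KO libraries lay wholly above the 6 WT libraries for 2 members, Derl3 and Edem1, and wholly below for 0, against 2.95% and 2.37% of all genes. Calls over all genes varied between fits of this contrast, from 827 to 1929 when 1 library was left out, against 1249 in the main fit. Without the libraries labelled STD WT 3 and HFD KO 2 the count of members was 8, with Xbp1 (0.39, adjusted p = 0.049), Ddit3 (0.72, adjusted p = 0.0466) and Chac1 (1.42, adjusted p = 0.0267) added to the 5. With the replicate number as a block within each diet, the count of members was also 8. Calr (0.42, adjusted p = 0.0341), Pdia6 (0.40, adjusted p = 0.0421) and Sdf2l1 (0.44, adjusted p = 0.0396) were added to the 5. Whether the added members in these fits only followed a change in calls over all genes was not tested. Within the standard diet, libraries with the same number did not deviate together.

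High fat feeding was also compared with standard feeding within each genotype, in libraries that the genotype comparisons share. In knockout islets 0 of 36 members passed, against 0.0435% of all genes (0.0311% higher and 0.0124% lower), and 10 members had an unadjusted p under 0.05, against 12.5% of all genes. DESeq2 called 1, Derl3 (log2 fold change 0.80, adjusted p = 0.0339), which edgeR's quasi-likelihood test placed at 0.78 (SE 0.20, adjusted p = 0.3). HFD KO libraries were wholly above STD KO libraries for 9 members, 8 of them chaperones, and wholly below for 3, all in the ATF4 branch, against 5.91% and 6.23% of all genes. The chaperones had a median log2 fold change of 0.34, with 14 of 15 positive, and the ATF4 branch one of -0.25. P4hb was at 0.59 (adjusted p = 0.34), and passed without HFD KO 3 (adjusted p = 0.0498). In that fit 822 of all 16076 genes passed, 640 of them higher, against 7 with the library included and 140 of 15961 by DESeq2.

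In wild type islets 0 of 36 members and 0% of all genes passed, and 2 members had an unadjusted p under 0.05, Derl3 (log2 fold change -0.45, SE 0.20) and Trib3 (-0.83, SE 0.37), against 4.74% of all genes. DESeq2 also called 0 members. HFD WT libraries were wholly above STD WT libraries for 2 members and wholly below for 2, against 5.06% and 4.53% of all genes. The median of the chaperones was -0.05. All 8 genes of the ATF4 branch had negative fold changes, with a median log2 fold change of -0.34, a pattern that rested on STD WT 3. Without the libraries labelled STD WT 3 and HFD KO 2, 5 of the 8 were negative, with a median of -0.02, and Chac1 (0.38), Atf4 (0.09) and Ddit3 (0.00) were not.

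Whether the genotype difference depended on diet was tested as an interaction. No member passed in edgeR's quasi-likelihood test, where 0% of all genes did, and 5 members had an unadjusted p under 0.05, against 7.91% of all genes. Derl3 had the smallest p, with an interaction of 1.24 on the log2 scale (SE 0.29, adjusted p = 0.621). DESeq2 called Derl3 alone among the members (1.26, SE 0.31, adjusted p = 0.0336). The median over the 15 chaperones was 0.48, from a median log2 fold change between genotypes of 0.59 under the high fat diet and 0.10 under the standard diet.

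Further genes of the same pathways were read from 5 lists, to be set beside the 3.9% of all genes that were higher and the 3.5% that were lower in HFD KO. Of 31 other ER folding and redox genes, 5 rose and 0 fell in HFD KO, among them Mcfd2, a cargo receptor subunit for the way to the Golgi, at 188 ± 27.8 CPM in HFD KO and 89.9 ± 13.2 CPM in HFD WT (SD, n = 3; log2 fold change 1.06, adjusted p = 0.00309 by edgeR's quasi-likelihood test). Fkbp11, a prolyl isomerase of secretory cells, was at 161 ± 69.5 CPM in HFD KO and 49.6 ± 6.89 CPM in HFD WT (SD, n = 3; 1.70, adjusted p = 0.00978). Erp29 (0.93) and the glucosidase subunit gene Prkcsh (0.61) rose too. Of 42 genes of ER entry, glycosylation and export, 9 rose and 0 fell. They included Kdelr3, which returns chaperones from the Golgi (0.97), Srp19 of the signal recognition particle (1.13), and Sec11c and Sec11a of the signal peptidase (1.30 and 0.80). None of 25 further degradation genes passed, with Ngly1, which removes glycans from exported proteins, closest (0.46, adjusted p = 0.0628), and 4 had an unadjusted p under 0.05.

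Of 31 further sensors and regulators tested, 1 rose, the membrane-bound factor Creb3 (log2 fold change 0.79), and 1 fell, the pro-apoptotic Bcl2l11 (-0.82). Of 38 further ATF4 targets 7 rose and 1 fell in HFD KO. The proline synthesis gene Pycr1 had 89.5 ± 6.59 CPM in HFD KO and 44.1 ± 6.95 CPM in HFD WT (SD, n = 3; 1.02, adjusted p = 0.00189 by edgeR's quasi-likelihood test). Psph, the last step of serine synthesis, and the mTORC1 inhibitor gene Ddit4 rose as well (0.96 and 1.23), whereas Cbs, the entry to transsulfuration, fell by 1.27 on the log2 scale to 30.8 ± 5.40 CPM in HFD KO, against 74.4 ± 3.98 CPM in HFD WT (SD, n = 3). On the standard diet 0 genes of the 5 lists passed, where 1.71% of all genes did. In the order of lists described here, 5 of 31, 0 of 42, 0 of 25, 0 of 31 and 4 of 38 had an unadjusted p under 0.05. Of all genes 8.66% did, and fold changes were positive for 20, 27, 16, 22 and 31 genes of the lists. The smallest p in each list there was that of Pdia5 (log2 fold change 0.48), Sec62 (-0.27), Stub1 (-0.17), Creb3 (0.33) and Cbs (-0.88, adjusted p = 0.0741). Averaged over both diets the 5 lists gave 5, 5, 0, 1 and 5 genes higher and 1, 0, 0, 0 and 1 lower in knockout islets, in the order in which they are described here, where 4.17% of all genes were higher and 3.6% lower, and the cystine transporter gene Slc7a11 was among those higher (1.55, adjusted p = 0.00428). The diet and interaction tests called 0 genes in any of the lists, where they called 0.0435% of all genes in KO islets and otherwise 0%. Between diets in KO islets, 11 of 31, 20 of 42, 2 of 25, 4 of 31 and 4 of 38 genes had an unadjusted p under 0.05. This is the same order of lists and the same test, and 12.5% of all genes had such a p. In the interaction 8, 13, 2, 2 and 2 genes did, against 7.91% of all genes.

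Other cell types moved with some of these results. Markers of macrophages summed to 335 to 396 CPM in HFD KO and 161 to 255 CPM in HFD WT, with 9 of 9 higher and 2 of them called, and to 259 to 327 CPM in STD KO and 212 to 255 CPM in STD WT. Stellate cell and fibroblast markers were higher for 7 of 7 in HFD KO, with 0 called and sums of 132 to 469.96 CPM in HFD KO and 28.1 to 196 CPM in HFD WT. Of 10 beta cell markers, 2 were called lower in HFD KO and 3 had positive fold changes, with a median log2 fold change of -0.41. On the standard diet 0 were called and 3 had positive fold changes, with a median of -0.28. Averaged over both diets 3 were called lower. None of these markers was at 0 in any group, and their part in the results on the 36 genes was not tested.

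Acinar and plasma cells are rich in ER, so their markers were read beside Derl3. Acinar markers summed to 16905 to 22937 CPM in HFD KO and 20874 to 33705 CPM in HFD WT, with 0 of 12 higher in HFD KO. On the standard diet they summed to 9449 to 24792 CPM in STD KO and 6146 to 26704 CPM in STD WT, lowest in STD WT 3. Plasma cell markers summed to 2687 to 3690.3 CPM in HFD KO and to 289, 3774 and 2364 CPM in HFD WT. Of the 8 plasma cell markers tested, 7 were higher in HFD KO, with a median log2 fold change of 0.53 and 0 called, and their part in the Derl3 result was not tested. Immediate early and heat shock genes, which respond to handling, summed to 2781 to 4063 CPM in HFD KO, 1800.0 to 3397 CPM in HFD WT, 3636 to 5567 CPM in STD KO and 3866 to 5988 CPM in STD WT. Their median log2 fold change was 0.51 in HFD KO against HFD WT, with 10 of 13 positive and 0 called. In HFD WT against STD WT it was -0.96, with 0 of 13 positive and 0 called, where 0% of all genes were called. There 8 of the 13 had an unadjusted p under 0.05 in edgeR's quasi-likelihood test, against 4.74% of all genes. In HFD KO against HFD WT 2 did, against 24.3% of all genes. The part of these genes in the ATF4 branch was not tested.

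Fold changes also ran with gene length. Across the 16076 genes, the log2 fold change in HFD KO against HFD WT correlated with length at a Spearman rho of -0.31, and at -0.05 on the standard diet. For high fat against standard diet rho was -0.34 in KO islets and 0.06 in WT islets. It was -0.27 for the interaction and -0.26 for the genotype difference averaged over both diets. The median length was 1543 bases for the 36 genes and 1799 bases for all genes. With offsets corrected for length, 6 members were higher in HFD KO, with Dnajc3, a BiP co-chaperone gene that also inhibits PERK, in place of Edem2 (0.69, SE 0.17, adjusted p = 0.0258).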

How the data were processed

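Per the labels' protocols, the pancreas was digested with collagenase, islets were enriched on Histopaque layers and total RNA was sequenced. The authors deposited read counts per gene and FPKM values for each library; TopHat2, Cufflinks and DESeq are named, without versions, and mm10 as the build, per the submitters' processing notes. No source used here gives the counting tool, the annotation release or the strand setting. Each of 257939 nonzero FPKM values, as deposited, equalled its count over gene length and library total (relative tolerance 1e-04). FPKM served only to compare levels between genes.

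Symbols were joined to 54409 Ensembl identifiers, and coordinates came from GENCODE M21. Ddit3 matched 2 identifiers, of which the one with counts was used. Counts were filtered with filterByExpr (minimum count 10, minimum total 15; 16076 genes kept), scaled by TMM and fitted with edgeR 4.0.16 in R 4.3.3 as a robust quasi-likelihood model with 1 mean for each of the 4 groups of 3 libraries. The 6 contrasts were KO against WT under each diet and averaged over both, HFD against STD within KO and within WT, and the interaction of genotype and diet. Within each contrast, Benjamini-Hochberg adjustment covered all 16076 genes, and an adjusted p under 0.05 counted as a call. The spread between libraries, with a common biological coefficient of variation of 0.307, set the precision. The fits were tested on simulated data.

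As alternatives, the fit was repeated with the size factors of DESeq2 1.42.0, with its Wald test, with no filter, with a stricter filter (1 CPM in 6 libraries), on the 2 compared groups only, with the replicate number as a block, with length-corrected offsets (also without HFD KO 3), without each library in turn, and without STD WT 3 and HFD KO 2 together. The labels number the libraries of each group 1 to 3 without saying what a number shares. Deviations of same-numbered HFD KO and HFD WT libraries from their group means correlated at 0.515, 0.41 and 0.336, so the block fit took the number to pair them. Such pairing held in none of the 3 other pairs of groups compared. The main fit has no block, and its p-values for HFD KO against HFD WT leave this pairing out.

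Members, branches and further lists were chosen with earlier results of these data known. Values in every library are given for members past the threshold and for the 2 members of each branch with the highest FPKM. Of each further list, up to 4 genes past the threshold, or the 1 with the smallest p, are named. Marker lists of alpha, delta, PP, ductal and endothelial cells and lymphocytes were also read: in HFD KO against HFD WT, 1 alpha cell marker was called higher and 0 of the others were called.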

Additional observations from a re-analysis of the deposited data

How the results depend on the processing

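Under the high fat diet the number of members called in knockout against wild type islets was 6, all higher. It was 6 with DESeq2 size factors, the stricter filter and length-corrected offsets, 4 with no filter and without STD WT 3 and HFD KO 2, 15 with the DESeq2 Wald test, 13 with the replicate block and 1 in a fit of the compared groups alone. Leaving out 1 library gave 1 to 10. On the standard diet 2 were called, and 1 in a fit of the compared groups alone, 1 with the replicate block, 1 with length-corrected offsets, also without HFD KO 3, and 0 without STD WT 3 and HFD KO 2. Leaving out 1 library gave 0 to 2. Averaged over both diets 5 were called, 11 by the DESeq2 Wald test, 8 with the replicate block, 8 without STD WT 3 and HFD KO 2, and 3 to 7 without 1 library, with 3 without HFD KO 1 or STD KO 3. In high fat against standard diet in KO islets 0 were called, 1 by DESeq2 and 0 to 1 without 1 library, the 1 without HFD KO 3. In WT islets the count was 0 in every fit run, and in the interaction 0 except 1 by DESeq2. The causes of these changes were not tested.

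Standard diet libraries with the same number did not deviate together (r from -0.234 to -0.004), so that the block there rests on a number alone. Over all genes the calls numbered 1189 under the high fat diet (513 in the compared groups alone, 527 to 2917 without 1 library), 275 on the standard diet (484 by DESeq2, 148 to 296 without 1 library), 7 between diets in KO islets (0 to 822 without 1 library) and 1249 averaged over both diets (827 to 1929). The median log2 fold change of the 36 genes in HFD KO stayed positive in every fit run, at 0.27 with length-corrected offsets without HFD KO 3 and at 0.33 to 0.56 without 1 library. No fold change of a called member changed sign. No fit varied the depth, at which the lowest count of a member in any library was 50.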
